A study of Mus musculus with 2 samples.

Results

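The genes described here encode the Dectin receptors of myeloid cells and the signalling chain that they share through Syk and Card9. They were chosen by symbol as a list of 10: the receptors Clec7a (Dectin-1), Clec4n (Dectin-2), Clec4d, Clec4e (Mincle) and Clec5a, the kinase Syk, the phospholipase Plcg2, and Card9, Bcl10 and Malt1. Of these, 9 were measured in the tables given. Clec7a was not analysed here, so nothing below bears on Dectin-1 itself. A further 114 genes of the pathway, in 8 lists, were read beside them.

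The cells were CD45+CD11b+ cells sorted from the synovial tissue of the hind paws of arthritic wild-type C57BL/6 mice, with 4 mice per group in 1 library and mice aged 7 to 10 weeks at the start, 17 days after arthritis was induced. One group had received 1 mg β-glucan intraperitoneally 7 days before the induction and the other PBS, and the study used β-glucan of Trametes versicolor and of S. cerevisiae without stating which one served here. The series text and the study give K/BxN serum transfer as the arthritis model of this experiment, whereas the sample labels describe an antibody cocktail followed by lipopolysaccharide. No transgene or deletion was carried by either group. Each group was sequenced as 1 droplet-based 3' library, so that each value below has no replicate, no p-value is given, and intervals (95%) cover counting error only.

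Dectin receptors are C-type lectins that bind sugars and lipids of fungal and mycobacterial walls, and β-glucan is the ligand of Dectin-1. Dectin-2, Clec4d and Mincle bind mannans and glycolipids and signal through the adaptor FcRγ (Fcer1g), while Clec5a uses DAP12 (Tyrobp). Phosphorylated tails of Dectin-1 and of these adaptors recruit Syk. Syk activates phospholipase Cγ2 and leads through protein kinase Cδ to a complex of CARD9, BCL10 and the paracaspase MALT1. That complex activates NF-κB.

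After a filter on unique molecular identifiers (UMIs) that asked for 500 genes per cell and no more than 10% of mitochondrial UMIs, 5696 cells of the β-glucan library and 4553 of the PBS library were left, at a median of 12457.5 and 14475 UMIs per cell. They fell into 18 clusters, rebuilt here without the members and the pathway genes among the variable genes and called by fixed markers. Of these, 10 formed a main myeloid compartment of macrophage-like, antigen-presenting cell (APC)-like, cDC1-like, monocyte-like and some unnamed clusters, with 81.0% and 80.7% of the cells. Although the sort was for CD11b, the B cell-like, T cell-like, NK cell-like, basophil or mast cell-like and stromal-like clusters stood beside them. In these, Itgam, the gene of CD11b, lay between 10.7 and 147 counts per 1e+06 UMIs (CPM), against 270 to 508 CPM in the large clusters 0 to 5 of the compartment. The T cell markers of NK cell-like cluster 13 summed to 1521 CPM with β-glucan and 1987 CPM with PBS. That was near T cell-like cluster 10 (1782 and 2284 CPM), so cluster 13 may hold T cells as well as NK cells. The libraries shared 7 barcodes, 2 of them among kept cells. Scrublet marked 0 and 3 cells as doublets, which is not a working call at these cell numbers, so doublets were kept. In summed cells of a cluster, fewer cells with a transcript and less transcript per cell cannot be told apart.

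The 3 neighbouring lectin genes Clec4n, Clec4d and Clec4e were each highest in neutrophil-like cluster 8. Clec4d was at 796 CPM with β-glucan and 1127 CPM with PBS in that cluster, followed by macrophage-like cluster 2 at 233 and 239 CPM and unnamed cluster 0, led by Spp1 and Ctsk, at 220 and 208 CPM. In both libraries cluster 8 lay above every other cluster for Clec4d, and the ranges of the libraries did not overlap between clusters 8, 2 and 0. Clec4e, whose product recognises mycobacterial cord factor and debris of dead cells, was at 409 and 594 CPM in cluster 8 and at 115 and 107 CPM in cluster 0. Macrophage-like cluster 1, led by Ednrb and Cd163, held the lowest Clec4e of the 17 clusters with at least 50 cells, at 5.02 and 3.75 CPM. Clec4n was at 134 and 154 CPM in cluster 8, at 70.8 and 99.4 CPM in macrophage-like cluster 2 and at 84.6 and 76.2 CPM in APC-like cluster 5, and the ranges of clusters 2 and 5 overlapped. Clec4n was low in macrophage-like cluster 3 (13.4 and 9.66 CPM) and in unnamed cluster 9 (7.49 and 3.27 CPM), both of which were high in Clec5a.

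These 3 genes lie next to each other on chromosome 6 of GRCm39, Clec4n at 123206802-123223980 on the plus strand, Clec4d at 123239070-123252230 on the plus strand and Clec4e at 123258748-123266829 on the minus strand. The 250 bases before the start of each canonical transcript are shown because the 3 shared their highest cluster, and were read from that genome build on the strand of the gene. Capitals mark matches on either strand to GAGGAA, the core letters bound by PU.1, and to TTGCNNAA, a form bound by C/EBP factors, whose member Cebpb is named again below.
Clec4n, chr6:123206552-123206801, plus strand: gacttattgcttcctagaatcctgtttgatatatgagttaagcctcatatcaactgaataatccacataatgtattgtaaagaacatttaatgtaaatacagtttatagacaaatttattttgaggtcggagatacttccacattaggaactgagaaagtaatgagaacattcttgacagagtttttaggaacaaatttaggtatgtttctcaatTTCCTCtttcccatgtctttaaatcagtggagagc
Clec4d, chr6:123238826-123239075, plus strand: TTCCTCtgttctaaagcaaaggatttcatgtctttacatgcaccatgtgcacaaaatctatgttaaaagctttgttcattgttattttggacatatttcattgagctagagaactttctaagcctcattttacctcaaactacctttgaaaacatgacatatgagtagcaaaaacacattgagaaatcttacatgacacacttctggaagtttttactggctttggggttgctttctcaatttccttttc
Clec4e, chr6:123266830-123267079, minus strand: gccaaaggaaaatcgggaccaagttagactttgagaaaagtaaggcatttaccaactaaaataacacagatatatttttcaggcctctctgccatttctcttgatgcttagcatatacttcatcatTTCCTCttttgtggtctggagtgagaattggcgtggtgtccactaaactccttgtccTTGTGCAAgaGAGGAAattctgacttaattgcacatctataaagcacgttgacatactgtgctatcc
GAGGAA was found 1 time before Clec4n, 1 time before Clec4d and 2 times before Clec4e, and 23.7% of the 31870 windows of that length before all annotated genes held it. TTGCNNAA was found 1 time, before Clec4e, where its first base lay 67 bases before the transcript start, and 9.78% of all windows held it. The AP-1 letters TGANTCA, held by 6.60% of all windows, were in none of the 3. The 2 motifs marked before Clec4e did not overlap. These are matches of letters in windows of 250 bases and no measure of binding.

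Clec5a, on chromosome 6 at 40551234-40562773, was distributed differently. It was highest in macrophage-like cluster 3, led by Vsig4 and S100b, at 148 CPM with β-glucan and 163 CPM with PBS, and next in unnamed cluster 9 at 115 and 131 CPM. Clusters 0, 2 and 1 followed at 96.1 and 99.8, at 84.9 and 89.2, and at 84.3 and 85.6 CPM, the last pair with overlapping ranges. APC-like cluster 4, led by Ccl17 and Arg1, held only 28.4 and 36.8 CPM. The macrophage-like cluster that was lowest in Clec4n was thus the highest in Clec5a, in both libraries.

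**Figure D1:**
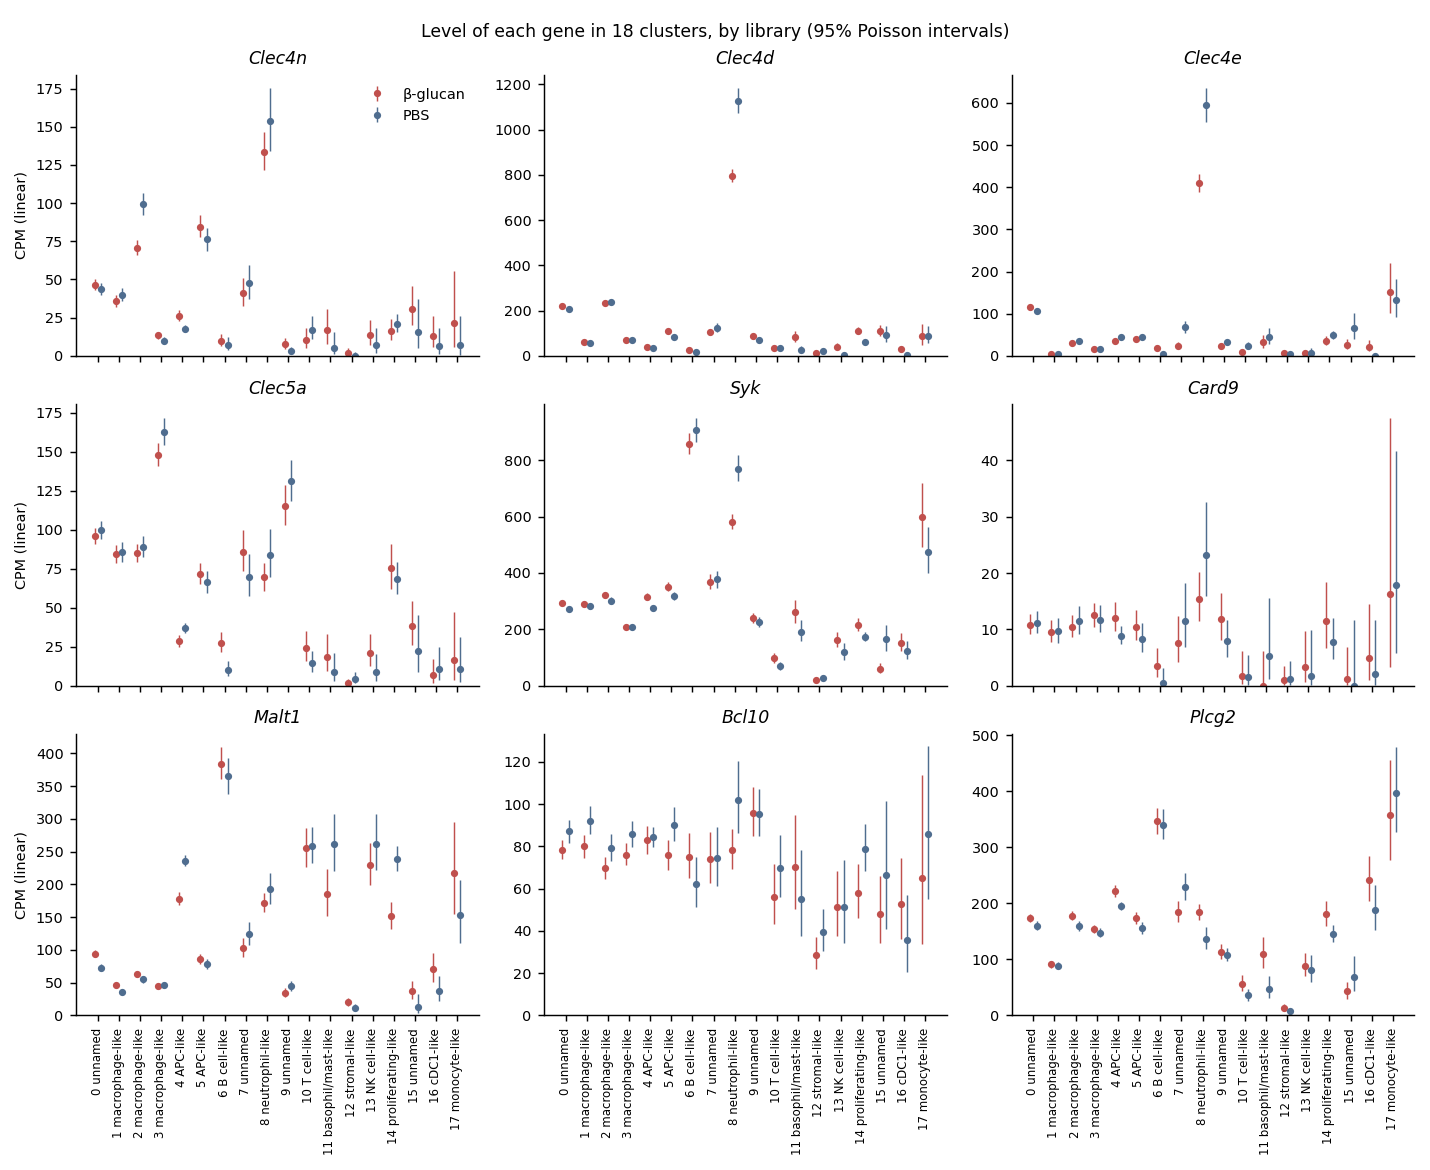
Level of each measured member (CPM on linear axes that start at 0) in each of 18 clusters, with 1 point per library and 95% Poisson intervals. Clec4n, Clec4d and Clec4e stand highest in neutrophil-like cluster 8, Clec5a in macrophage-like cluster 3, and Syk and Malt1 in B cell-like cluster 6, as does Plcg2 among the 17 clusters with at least 50 cells.

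Syk, the kinase that couples these receptors, and also the B cell receptor, to their signals, was present across the leukocyte clusters (chromosome 13, 52736696-52802828). It was highest in B cell-like cluster 6, at 859 CPM with β-glucan and 906 CPM with PBS, followed by neutrophil-like cluster 8 at 582 and 770 CPM. Within the clusters 0 to 5 of the compartment it spanned 207 to 351 CPM over both libraries, and stromal-like cluster 12 was at 21.4 and 28.5 CPM. Also in the compartment, unnamed cluster 7 was at 368 and 377 CPM and cDC1-like cluster 16 at 152 and 124 CPM. Plcg2, which makes the second messengers that raise calcium and activate protein kinase C (chromosome 8, 118224988-118361881), was likewise highest in cluster 6, at 346 and 340 CPM, among clusters with at least 50 cells, and the 41 monocyte-like cells of cluster 17 read 358 and 397 CPM. The cDC1-like cluster 16 and APC-like cluster 4 followed with overlapping ranges, at 242 and 189 CPM and at 222 and 195 CPM. Within the compartment, macrophage-like cluster 1 was low in Plcg2, at 91.2 and 89.0 CPM.

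Card9, the scaffold of the myeloid complex (chromosome 2, 26242188-26250930), was sparse, with 708 and 611 UMIs in the whole compartment. Among clusters with at least 50 cells it was highest in neutrophil-like cluster 8 at 15.4 and 23.3 CPM, while cluster 17 read 16.3 and 17.9 CPM from 3 and 5 UMIs, and it lay between 8.26 and 12.5 CPM in clusters 0 to 5. In B cell-like cluster 6 it was at 3.52 and 0.552 CPM and in T cell-like cluster 10 at 1.73 and 1.50 CPM.

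Malt1, the protease of the complex, was higher in the lymphoid clusters than in the macrophage-like ones. The same held outside the lymphoid clusters, with values for β-glucan and PBS in that order. Basophil or mast cell-like cluster 11 was at 185 and 261 CPM, proliferating-like cluster 14 at 152 and 238 CPM and neutrophil-like cluster 8 at 172 and 192 CPM. B cell-like cluster 6 held 384 CPM with β-glucan and 365 CPM with PBS, T cell-like cluster 10 held 255 and 259 CPM, and NK cell-like cluster 13 held 230 and 262 CPM, whereas macrophage-like clusters 1 to 3 held between 35.9 and 63.3 CPM. Within the compartment APC-like cluster 4 held 178 and 236 CPM, and the 41 cells of monocyte-like cluster 17 held 217 and 154 CPM from 40 and 43 UMIs. Bcl10, the linker between scaffold and protease (chromosome 3, 145628559-145641006), varied least among the members, from 95.7 CPM over both libraries in unnamed cluster 9 to 33.5 CPM in stromal-like cluster 12, a range of 2.86-fold. For Bcl10, 14 of the 16 pairs of clusters next to each other in order had overlapping ranges, and for the other members 10 to 13 of 16 did.

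To compare single cells at equal depth, each cell was thinned to 3000 UMIs, which left out 262 cells with β-glucan and 234 with PBS that were shallower. At least 1 UMI of the 4 measured receptors was found in 93.5% of neutrophil-like cells (90.6 to 95.8%), 64.5% of cluster 2 (61.8 to 67.1%), 63.9% of cluster 0 (61.5 to 66.3%) and 23.4% of APC-like cluster 4 (20.7 to 26.2%). Stromal-like cells, which should lack these receptors, had 3.91% (1.59 to 7.89%), and T cell-like cells 7.52% (4.44 to 11.8%). Not thinned, the shares were 99.5% of neutrophil-like, 12.3% of stromal-like and 15.4% of T cell-like cells, at median depths of 9265 and 4544 UMIs for the neutrophil-like, 17689 and 20874 UMIs for the stromal-like, and 7695.5 and 9163.5 UMIs for the T cell-like cells of the β-glucan and PBS libraries. B cell-like cells, at 5.61% after thinning (3.81 to 7.91%), lay at that background for the receptors, while 90.5% of them (87.7 to 92.8%) had a UMI of Syk and 61.5% (57.2 to 65.6%) a UMI of Malt1. A UMI of Card9 was found in 0 of 179 thinned stromal-like cells, which allows a share of up to 2.04% at that depth (Clopper-Pearson), in 0.374% of B cell-like cells (0.0453 to 1.34%) and in 2.91% of the compartment (2.55 to 3.30%). Its share in neutrophil-like cells was 5.71% (3.62 to 8.52%). Not thinned, the shares of cells with a Card9 UMI were 2.23% of stromal-like, 1.57% of B cell-like, 14.3% of compartment and 17.6% of neutrophil-like cells.

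Genes with the pattern most like each member were ranked by Pearson's r of log2(CPM + 1) over the 17 clusters with at least 50 cells, among 10846 genes, as a description only, since the clusters share 2 libraries and their depths. Clec4d was most like Cebpb, the transcription factor C/EBPβ (r = 0.92), and Clec4e most like the chemokine gene Cxcl2 (0.93), followed by Il1rn (0.89) and Nlrp3 (0.88). Clec5a was most like Lair1 (0.97), Trem2 and C1qa (both 0.96). Syk was most like Tec, Ptpn6 and Lyn (0.91 each), which encode 2 further tyrosine kinases and a phosphatase of the same signalling layer. Plcg2 was most like Cd180 (0.96), Malt1 most like Rac2 (0.91), Bcl10 most like Itgam (0.92), Card9 most like Rhog (0.92) and Clec4n most like Gm31718 (0.92). Among the members themselves the closest pairs were Clec5a with Bcl10 (0.88), Syk with Plcg2 (0.87) and Clec4d with Clec4e (0.83), while Malt1 was near 0 with Clec4d (-0.01), Clec5a (-0.03) and Card9 (0.04).

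The libraries were then compared over the compartment, whose summed UMIs came to 65356553 (β-glucan) and 60540550 (PBS), and a gene was called where the log2 ratio of its CPM reached 0.32 in either direction. None of the 9 members was called higher, and 1, Malt1, was called lower with β-glucan. Of the 9809 genes whose mean reached 5 CPM, 3.86% were called higher and 3.16% lower, and the median log2 ratio over these genes was 0.03. The members' median of 0.05 was close to it. Among the receptors, Clec4d was at 129 CPM with β-glucan and 109 CPM with PBS (log2 ratio 0.24, 0.19 to 0.29), Clec4n at 42.4 and 39.9 CPM (0.09, 0.01 to 0.17), Clec4e at 43.1 and 45.8 CPM (-0.09, -0.17 to -0.01) and Clec5a at 90.3 and 87.3 CPM (0.05, -0.01 to 0.10). Clec4n and Clec4d were each higher with β-glucan in 5 of the 8 clusters of the compartment in which both libraries had 50 cells or more, and Clec4e in 2 of 8. Clec5a was lower in 6 of the 8, against its value over the compartment. With equal cluster shares Clec4d was at 0.07 in place of 0.24, Clec4n at -0.04, Clec4e at -0.08 and Clec5a at -0.08. None of the 4 receptors reached 0.32. Syk was at 292 and 273 CPM (0.10, 0.07 to 0.13) and was higher with β-glucan in 7 of these 8 clusters. Plcg2 was at 162 and 157 CPM (0.05, 0.01 to 0.09), also higher in 7 of 8. Card9 was at 10.8 and 10.1 CPM (0.10, -0.06 to 0.26), which left no difference detectable at this depth. Bcl10 was at 77.4 and 85.9 CPM (-0.15, -0.21 to -0.09) and lower with β-glucan in 7 of 8 clusters. Over all genes the median log2 ratio was 0.06 for spans of 30 to 100 kb (Syk, Malt1) and 0.14 from 100 kb (Plcg2). It was -0.06 under 10 kb (Clec4e, Card9) and -0.001 from 10 to 30 kb (Clec4n, Clec4d, Clec5a, Bcl10). The part of span in the members' ratios was not tested.

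**Figure D2:**
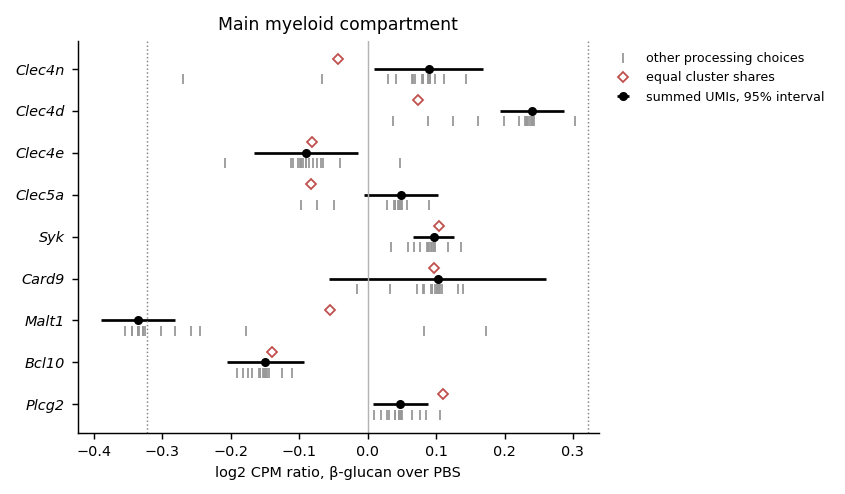
Log2 ratio of CPM, β-glucan over PBS, of each member in the main myeloid compartment. Black points are summed UMIs with 95% counting intervals, open diamonds the value with equal cluster shares in both libraries, grey ticks the values under other processing choices, and dotted lines mark a log2 ratio of 0.32 either way. Malt1 alone passes the line at -0.34 and moves to -0.05 with equal cluster shares.

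Malt1 was at 79.8 CPM with β-glucan and 101 CPM with PBS in the compartment (5218 and 6099 UMIs, log2 ratio -0.34, -0.39 to -0.28). It was not lower throughout. With β-glucan it was higher in unnamed cluster 0 (94.0 against 73.0 CPM, 0.37, 0.24 to 0.49), in macrophage-like cluster 1 (45.9 against 35.9 CPM, 0.35, 0.14 to 0.57) and in macrophage-like cluster 2 (63.3 against 55.0 CPM, 0.20, 0.03 to 0.38). It was lower in APC-like cluster 4 (178 against 236 CPM, -0.41, -0.50 to -0.32). Inside cluster 4 the 6 osteoclast markers summed to 42.4 and 152 CPM and the 6 proliferation markers to 25.2 and 48.8 CPM, with 0 of 6 higher with β-glucan in either list, while the APC markers summed to 37717 and 35436 CPM. Cluster 4 held 11.5% of all β-glucan UMIs in the compartment and 23.4% of all PBS UMIs, and 25.7% and 54.9% of its Malt1 UMIs. When each cluster was given the same share of UMIs in both libraries, the log2 ratio of Malt1 was -0.05, and without cluster 4 it was 0.18. The 10 APC markers moved with it, at a summed 7429 CPM with β-glucan and 11307 CPM with PBS in the compartment, none of the 10 being higher with β-glucan and none being at 0. The share of cluster 4 differed between the libraries, as did the osteoclast and proliferation marker sums inside it. Their part in the Malt1 result was not tested beyond these values.

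Part of the Malt1 UMIs was concentrated in few cells, more so with PBS. In the compartment 2132 of 4612 β-glucan cells and 1726 of 3674 PBS cells had a Malt1 UMI, so the median per cell was 0. Of the 3674 PBS cells, 50 (1.36%, 1.01 to 1.79%) had 20 or more, holding 33.1% of all Malt1 UMIs of that library. With β-glucan 16 of 4612 cells (0.347%, 0.198 to 0.563%) had 20 or more and held 9.81%. The highest cell held 170 Malt1 UMIs with PBS and 80 with β-glucan. Without these cells, a limit of 20 UMIs being chosen after the values were seen, Malt1 was at 72.4 CPM with β-glucan and 69.1 CPM with PBS (log2 ratio 0.07). Malt1 itself chose the cells, and they held more of the PBS Malt1 UMIs, so leaving them out had to raise the ratio. Without them, Malt1 was at 132 CPM with β-glucan and 114 CPM with PBS in cluster 4, and at 85.5 and 71.4 CPM in cluster 0. Of the cells past the limit, 46 of 50 with PBS and 11 of 16 with β-glucan were in cluster 4, where they made up 7.77% (5.74 to 10.2%) and 3.14% (1.58 to 5.55%) of the cells. The limit is a raw count, so these shares were not compared at equal depth. PBS cells were deeper, at medians of 15469.5 against 13029.5 UMIs in the compartment and 22455.5 against 18608.5 UMIs in cluster 4.

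**Figure D3:**
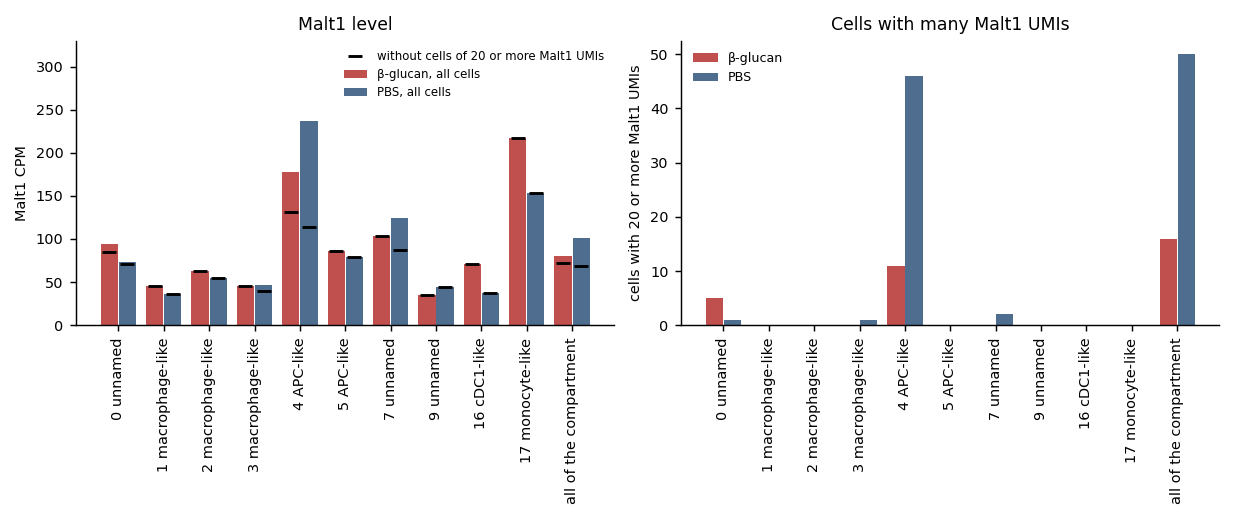
Left, Malt1 CPM of each cluster of the compartment and of the compartment as a whole by library (bars), with the value after leaving out cells with 20 or more Malt1 UMIs (black dashes). Right, the number of such cells, 11 with β-glucan and 46 with PBS in APC-like cluster 4.

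In cluster 4 the 57 cells with 20 or more Malt1 UMIs were set beside the other 885 as a description, since the value of Malt1 itself chose them. They were somewhat deeper, at a median of 24474 against 20451 UMIs, and 1 of them was among the cells of highest Scrublet score. Other genes were compared by CPM. Of the 12 output genes of the pathway with at least 5 CPM in the other cells, 10 were at least 2-fold higher in the cells rich in Malt1, against 2.40% of the 9695 genes read in the same way, and the median was 4.17-fold against 0.929-fold over all of these genes. Over both libraries Cxcl2 was at 586 against 68.7 CPM, Il1b at 355 against 61.8 CPM, Tnf at 226 against 42.0 CPM and Ccl4 at 211 against 38.2 CPM. Most of the cells were of the PBS library, and the libraries differed for Cxcl2, which was at 676 against 78.2 CPM with PBS and at 76.2 against 52.0 CPM with β-glucan. Il1b was at 334 against 45.2 CPM with PBS and 474 against 90.8 CPM with β-glucan, and Tnf at 245 against 43.6 CPM and 114 against 39.3 CPM. Of the 21 genes of the NF-κB and calcium-NFAT branch 3 were at least 2-fold higher, with a median of 1.14-fold. These were the NF-κB subunit genes Nfkb1 (902 against 324 CPM), Rel (611 against 228 CPM) and Relb (142 against 71.0 CPM), while the subunit genes Rela (65.2 against 57.2 CPM) and Nfkb2 (46.0 against 37.8 CPM) were not. Of the 14 negative regulators 3 were at least 2-fold higher, with a median of 1.07-fold. These were the NF-κB inhibitors Nfkbia (812 against 213 CPM) and Nfkbie (86.9 against 40.7 CPM) and the deubiquitinase gene Tnfaip3 (311 against 68.1 CPM), whose product is a substrate of MALT1. The partners of Malt1 did not stand out, with Bcl10 at 87.5 against 83.5 CPM, Card9 at 7.67 against 10.2 CPM from 12 UMIs, and Syk at 309 against 287 CPM. Of the receptors, Clec4e was at 112 against 36.4 CPM, Clec4n at 44.1 against 18.9 CPM, Clec4d at 40.9 against 35.4 CPM and Clec5a at 41.5 against 33.3 CPM. Clec4e was at 124 against 37.5 CPM with PBS and at 46.6 against 34.6 CPM with β-glucan. The median fold of the 18 kinases and proximal adaptors was 1.06 and that of the 6 genes of the NADPH oxidase was 1.01. Within these cells Malt1 itself was at 1613 CPM in the 11 β-glucan cells and 1416 CPM in the 46 PBS cells.

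**Figure D4:**
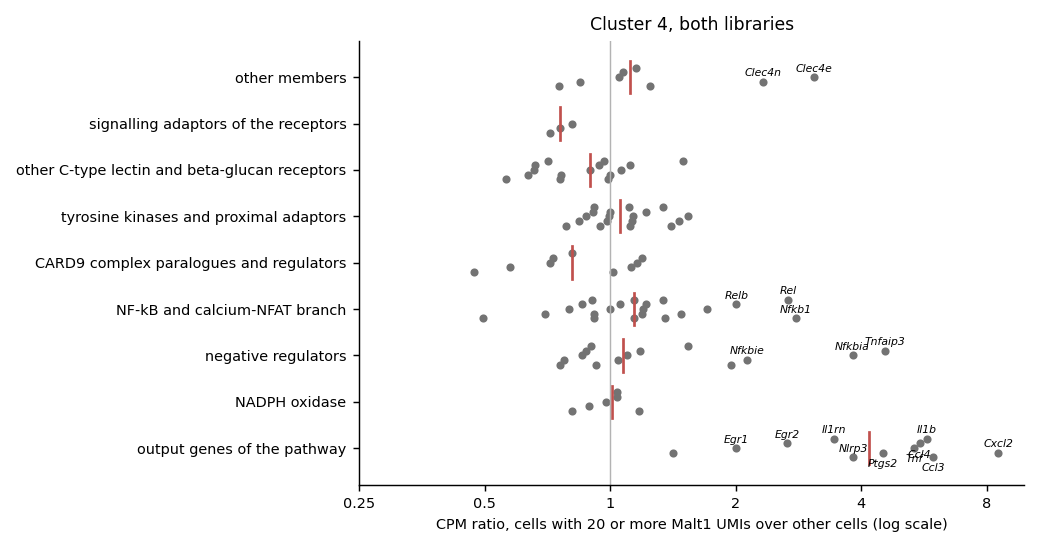
Ratio of CPM (log axis) between the 57 cells of cluster 4 with 20 or more Malt1 UMIs and the other 885 cells of that cluster, both libraries summed. Each grey point is a gene with at least 5 CPM in the other cells, red bars are list medians, and names mark genes at least 2-fold higher, most of them output genes such as Cxcl2 and NF-κB genes such as Nfkbia, while Il12b, at 0 UMIs in the 57 cells, cannot be drawn on this axis.

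A finer clustering (resolution 1) divided cluster 4 in a way that differed between libraries. One finer cluster held 348 β-glucan and 454 PBS cells, with Malt1 at 178 and 194 CPM (log2 ratio -0.12, -0.22 to -0.02). The other held 136 cells, all of the PBS library, with Malt1 at 352 CPM and Clec5a at 65.2 CPM, so that this group of cells cannot be told apart from its library. Its markers differed too, with APC markers at a summed 24531 CPM and macrophage markers at 5329 CPM. In the first finer cluster the APC markers summed to 37907 CPM with β-glucan and 39215 CPM with PBS, and the macrophage markers to 3704 and 3299 CPM.

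Among clusters of the compartment with 50 cells in each library and members with at least 30 UMIs in a library, a difference of at least 1.5-fold was found for 1 member. In unnamed cluster 7, whose cells were shallow (medians of 5008.5 and 4161.5 UMIs), Clec4e was at 24.0 CPM with β-glucan and 67.3 CPM with PBS from 48 and 105 UMIs (log2 ratio -1.49, -2.01 to -0.98). The 7 monocyte markers moved with it there, at a summed 100 and 217 CPM, 1 of the 7 being higher with β-glucan, and the 6 osteoclast markers were at 47.5 and 112 CPM, with Calcr and Ocstamp at 0. Other lists went the other way. The macrophage markers summed to 8236 and 7052 CPM (8 of 11 higher) and the APC markers to 1516 and 1476 CPM (8 of 10 higher). The proliferation markers summed to 41.5 and 16.0 CPM (5 of 6 higher). The part of these lists in the Clec4e value was not tested. Clec4n differed in opposite directions between clusters, being lower with β-glucan in macrophage-like cluster 2 (70.8 against 99.4 CPM, -0.49, -0.64 to -0.34) and higher in APC-like cluster 4 (26.4 against 17.7 CPM, 0.57, 0.30 to 0.85). In unnamed cluster 9 it was also higher, at 7.49 against 3.27 CPM, from only 21 and 10 UMIs (1.20, 0.05 to 2.45).

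Outside the compartment, Malt1 was lower with β-glucan in proliferating-like cluster 14, at 152 against 238 CPM (-0.65, -0.88 to -0.43). Clec4d was higher there, at 111 against 60.0 CPM (0.89, 0.56 to 1.21). The summed macrophage markers of that cluster were at 5076 and 3684 CPM with 11 of 11 higher with β-glucan. The neutrophil markers were at 4592 and 760 CPM with only 4 of 7 higher. The T cell markers there summed to 65.3 and 185 CPM with 0 of 8 higher, and the APC markers to 17980 and 24068 CPM with 2 of 10 higher. In B cell-like cluster 6 Clec4d, Clec4e and Clec5a were past 1.5-fold higher with β-glucan, at 25.1 against 15.4, 18.8 against 5.52 and 27.4 against 9.93 CPM, and so was Clec4d in the basophil or mast cell-like cluster 11 (81.8 against 26.6 CPM) and in NK cell-like cluster 13 (40.1 against 5.30 CPM). Few UMIs lay behind these values, in cluster 6 in that order 64 against 28, 48 against 10 and 70 against 18. Clec4d had 49 against 15 UMIs in cluster 11. In cluster 13 it had 36 against 3 UMIs (log2 ratio 2.92, 1.26 to 5.26). In these clusters the macrophage markers were also higher with β-glucan, at 3037 against 1602 CPM in cluster 6, 3136 against 1265 CPM in cluster 11 and 2521 against 1593 CPM in cluster 13, with 9 or 10 of 11 markers higher. The neutrophil markers summed to 357 against 73.9 CPM in cluster 6 (6 of 7 higher) and 1083 against 64.0 CPM in cluster 11 (5 of 7 higher), with Ly6g at 0 in both clusters. In cluster 13 they summed to 8.92 against 8.84 CPM (3 of 7 higher). The APC markers of cluster 11 were at 3568 against 863 CPM. Plcg2 was past 1.5-fold higher in T cell-like cluster 10 (56.1 against 36.0 CPM) and in cluster 11 (110 against 48.0 CPM), Clec4e was lower in cluster 10 (8.63 against 22.5 CPM), and Clec4d was lower in stromal-like cluster 12 (11.7 against 20.7 CPM). Malt1 in cluster 12 (19.96 against 11.5 CPM) and Card9 in neutrophil-like cluster 8 (15.4 against 23.3 CPM) were past 1.5-fold too, with intervals that hold 0. Whether RNA of other cells makes up these low levels was not tested.

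In neutrophil-like cluster 8 the libraries differed in makeup. Its β-glucan cells had a median of 9265 UMIs and its PBS cells of 4544, and at resolution 1 it divided into a shallow group of 123 and 130 cells and a deeper group of 121 and 41 cells, of which 29.0% were among the cells of highest Scrublet score. The neutrophil markers summed to 66255 and 66331 CPM in the shallow group and to 6923 and 14953 CPM in the deeper one. In the deeper group the macrophage markers summed to 8837 and 7064 CPM and the APC markers to 10246 and 9724 CPM. Values over the whole of cluster 8 are thus of a mixed cluster. In the shallow group Clec4d was at 1681 CPM with β-glucan and 1826 CPM with PBS (-0.12, -0.24 to -0.00), Clec4n at 210 and 231 CPM (-0.14, -0.47 to 0.20) and Clec4e at 1180 and 981 CPM (0.27, 0.12 to 0.42). None of the 3 reached 0.32 there, although Clec4d and Clec4e had read lower with β-glucan over the whole cluster. Clec5a was at 53.5 and 115 CPM in the shallow group (38 and 78 UMIs, -1.10, -1.70 to -0.52), and Plcg2 at 227 and 121 CPM (0.91, 0.52 to 1.31). Malt1 was at 330 and 256 CPM (0.37, 0.08 to 0.66), although it had read lower with β-glucan over the whole cluster. Bcl10 was at 76.1 and 113 CPM (54 and 77 UMIs, -0.57, -1.10 to -0.05). Card9 was at 26.8 and 27.9 CPM (-0.06) from 19 UMIs in each library. B cell markers moved with Plcg2 there, at a summed 1095 and 222 CPM. So did the macrophage (1490 and 878 CPM), APC (2771 and 2321 CPM) and monocyte markers (2006 and 1667 CPM), and the part of these lists was not tested.

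Over the compartment the adaptors of the receptors differed little. Outside it, Tyrobp was lower with β-glucan in the mixed neutrophil-like cluster 8, at 1699 against 2728 CPM (-0.68, -0.74 to -0.62). Fcer1g was higher in B cell-like cluster 6, at 354 against 221 CPM (0.68, 0.51 to 0.85). Inside the compartment Tyrobp ran from -0.32 in cluster 7 to 0.23 in cluster 4. Fcer1g was at 1192 CPM with β-glucan and 1254 CPM with PBS in the compartment (log2 ratio -0.07) and Tyrobp at 1044 and 1087 CPM (-0.06), each lower with β-glucan in 7 of 8 clusters, and Hcst, which encodes DAP10, at 99.6 and 92.1 CPM (0.11). Of the 96 pathway genes with at least 5 CPM, 5 were called higher and 8 lower, beside 3.86% and 3.16% of all genes as above, with a median log2 ratio of 0.02 beside 0.03 over all genes. The counts of each list below are small and are to be read against the same shares. Of the 8 called lower, Nfkbia, Cxcl2 and Il1rn were also called with equal cluster shares (log2 ratios of -0.55, -0.38 and -0.34), whereas Tnf (-0.23), Zc3h12a (-0.21), Tnfaip3 (-0.17), Mgl2 (0.00) and Clec4b1 (0.20) were not. Of the 5 called higher, Rubcn was not called with equal cluster shares (0.27). Without cluster 4, Lcp2, Ccl3, Nfkbia and Il1rn were called, and Pik3ap1 and Clec2d (both 0.31) lay just inside the limit.

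Among the 18 kinases and proximal adaptors read, 2 were called higher and none lower, with a median of 0.10. Pik3ap1, an adaptor for phosphoinositide 3-kinase, was at 167 and 124 CPM (0.43, 0.39 to 0.47), and Lcp2, which encodes the adaptor SLP-76, at 129 and 102 CPM (0.34, 0.30 to 0.39), and both were higher with β-glucan in 8 of 8 clusters. Genes of the list with the lowest ratios were Fyn at 151 and 169 CPM (-0.16) and Prkcd, the kinase upstream of CARD9, at 178 and 194 CPM (-0.13), and Prkcd was lower in 8 of 8 clusters. Genes of this list span a median of 81.0 kb, and over all genes the median log2 ratio rose from -0.06 for those under 10 kb to 0.14 for those of 100 kb or more. Plcg1, the relative of Plcg2, was at 7.18 and 7.15 CPM, and Zap70, the relative of Syk in T cells, at 14 and 15 UMIs.

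Of the 9 paralogues and regulators of CARD9 read, Rubcn, whose product binds CARD9, was called higher, at 35.4 and 27.5 CPM (0.36, 0.27 to 0.46). Casp8 was at 113 and 105 CPM (0.11), Pycard, which encodes the inflammasome adaptor ASC, at 103 and 116 CPM (-0.18) and Rbck1, of the linear ubiquitin ligase, at 35.02 and 37.6 CPM (-0.10).

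None of the 21 genes of the NF-κB and calcium-NFAT branch was called, with a range from -0.25 for Rel (127 and 151 CPM) to 0.18 for the calcineurin gene Ppp3ca (813 and 719 CPM). Relb was at 48.9 and 57.2 CPM (-0.23) and Nfatc2 at 89.5 and 80.7 CPM (0.15). Of the 14 negative regulators, 3 were called lower and none higher. Nfkbia, the gene of the NF-κB inhibitor IκBα, was at 136 CPM with β-glucan and 211 CPM with PBS (-0.64, -0.67 to -0.60) and was lower with β-glucan in 8 of 8 clusters. Zc3h12a, which encodes the RNase Regnase-1, was at 26.5 and 33.4 CPM (-0.34, lower in 7 of 8) and Tnfaip3 at 40.9 and 51.5 CPM (-0.33, lower in 5 of 8). Itch was at 145 and 134 CPM and Sirpa at 429 and 397 CPM, with a ratio of 0.11 or 0.12.

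Of the 9 output genes read, 3 were called lower and 1 higher, so that the list moved in both directions. Cxcl2 was at 71.4 and 96.7 CPM (-0.44, -0.49 to -0.38, lower in 5 of 8 clusters), Tnf at 26.1 and 34.4 CPM (-0.40, -0.49 to -0.31, lower in 6 of 8), and Il1rn, which encodes the interleukin-1 receptor antagonist, at 6.33 and 8.03 CPM (-0.34). Without the cells of 20 or more Malt1 UMIs the ratios were -0.25 for Cxcl2 and -0.23 for Tnf, and neither was called. Ccl3 was at 22.5 and 17.1 CPM (0.40, 0.28 to 0.51, higher in 5 of 8). Il1b, at 28.8 and 24.1 CPM (0.26, 0.16 to 0.36), was not called but was higher with β-glucan in 8 of 8 clusters. Il12b was read from 115 UMIs in the β-glucan library, 87 of them in 1 cell, and from 5 in the PBS library.

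Of the 16 other lectin and β-glucan receptors read, 1 was called higher and 2 lower. Clec2d was at 68.0 and 52.5 CPM (0.37, 0.31 to 0.44). Mgl2, a galactose-binding lectin that is also among the APC markers, was at 143 and 221 CPM (-0.63, -0.67 to -0.59) and Clec4b1 at 35.5 and 50.8 CPM (-0.52, -0.60 to -0.44). Clec4b1 was higher with β-glucan in 6 of 8 clusters although it was lower over the compartment, and the share of cluster 4 given above stood beside it as it did beside Malt1. Cd36 was at 928 and 783 CPM (0.25). None of the 6 genes of the NADPH oxidase was called, with Cybb at 473 and 415 CPM (0.19), Ncf1 at 321 and 298 CPM (0.10), Rac2 at 89.5 and 103 CPM (-0.21) and Cyba at 888 and 1034 CPM (-0.22), and Cyba was lower in 8 of 8 clusters.

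**Figure D5:**
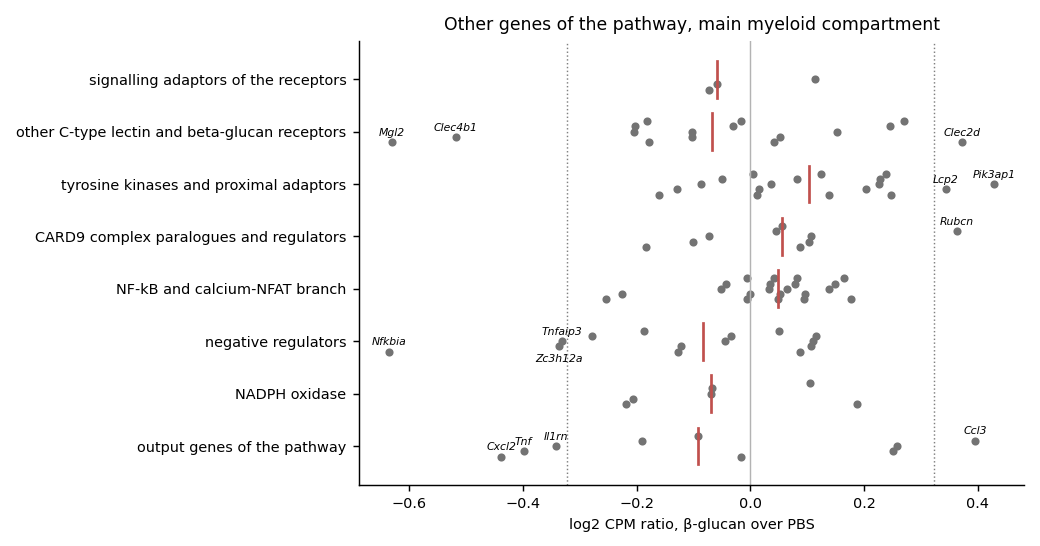
Log2 ratio of CPM, β-glucan over PBS, of 96 pathway genes in the main myeloid compartment by list. Each grey point is a gene, red bars are list medians, dotted lines mark a log2 ratio of 0.32 either way, and names mark the 5 genes called higher and the 8 called lower.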

How the data were processed

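CD45+CD11b+ synovial cells were profiled in 1 droplet-based 3' library for each group. The authors deposited counts of UMIs per gene and cell barcode, made with Cell Ranger 7.0.0 on GRCm39 with Ensembl 104 genes, called as cells but not normalized or filtered further. Whether intronic reads were counted is not given in the sources used here, and bears on long genes. The libraries held 81611849 (β-glucan) and 73874602 (PBS) UMIs.

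Groups were taken from the labels. Cells were kept at 500 genes and 10% mitochondrial UMIs. Clusters were rebuilt with Seurat 5.3.0 and sctransform 0.4.2 in R 4.3.3 (3000 variable genes, 30 principal components, 20 neighbours, resolution 0.7, no integration), with 70 members and pathway genes left out of the variable genes. A cluster was named where at least 3 fixed markers were each found in 25% of its cells and its 10 leading genes did not favour another class. Sums, intervals and thinning used scipy 1.17.1 and pandas 2.3.3 under Python 3.11.15. Scrublet was run from scanpy 1.11.5, and leidenalg 0.10.2 and edgeR 4.0.16 (TMM factors only) served as alternatives.

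UMIs of a cluster or of the compartment were summed per library and given as CPM, with exact Poisson intervals. Ratios carry exact conditional binomial intervals and shares of cells Clopper-Pearson intervals. Calls (a log2 ratio of 0.32 either way) were read over genes whose mean reached 5 CPM. The intervals and calls were run on simulated sums, drawn with Poisson error from the compartment means. That is the error the intervals assume, and UMIs concentrated in few cells were not simulated. The simulation therefore checks the computation only, not whether the intervals are wide enough for these data. No test across samples was possible. Sequences were read from the GRCm39 genome at the canonical transcripts of GENCODE, a later annotation in which 31870 of the 32524 genes were matched by Ensembl ID. No member overlaps another gene on its own strand.

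Beside the members, pathway genes were named as the 2 highest and 2 lowest ratios of each list among genes of at least 20 CPM, with Fcer1g, Tyrobp, Plcg1 and Zap70 always given, and differences within clusters from 1.5-fold with at least 30 UMIs in a library and 50 cells in both. Tnfaip3, Ccl3, Il1rn, Il12b, the genes of the cells rich in Malt1 and the groups inside clusters 4 and 8 were chosen after their values were seen. The members and lists were chosen with earlier results of these data known. A further pathway gene is not reported here. The alternatives tried are given in the closing section.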

Additional observations from a re-analysis of the deposited data

Results flagged for a closer look

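For 2 members the libraries differed in opposite directions between clusters of the compartment, each by a log2 ratio of more than 0.32 with a counting interval that leaves out 0. The log2 ratio of Malt1, β-glucan over PBS, was 0.37 in unnamed cluster 0 and -0.41 in APC-like cluster 4. At resolution 1 the part of cluster 4 found in both libraries was at -0.12 (-0.22 to -0.02). The other part was 136 cells of the PBS library alone, at 352 CPM. Without the cells of 20 or more Malt1 UMIs, Malt1 was at 132 CPM with β-glucan and 114 CPM with PBS in cluster 4. In cluster 0 it was then at 85.5 and 71.4 CPM, so these 2 clusters no longer differed in direction. Malt1 itself chose the cells left out, and the limit was chosen after the values were seen. The log2 ratio of Clec4n was 1.20 in unnamed cluster 9, from 21 and 10 UMIs, and -0.49 in macrophage-like cluster 2, from 762 and 761 UMIs. With 1 library per group, the difference between clusters was not tested.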

How the results depend on the processing

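No paired analysis was possible because each group is 1 library. Over 18 other processing choices Clec4d, Syk and Plcg2 stayed above 0 in log2 ratio and Bcl10 below 0, with ranges of 0.04 to 0.30, 0.03 to 0.14, 0.01 to 0.11 and -0.19 to -0.11. Clec4n ranged from -0.27 to 0.14, Clec4e from -0.21 to 0.05, Clec5a from -0.10 to 0.09 and Card9 from -0.02 to 0.14, each with both signs. No member was called higher under any setting. Malt1 ranged from -0.36 to 0.17 and stayed called lower in 11 of the 18. The count of members called lower was 0 in place of 1 without the cells of highest Scrublet score, with equal weight per cell or per cluster, in cells thinned to 8000 UMIs, in cells matched by how much of their RNA came from long genes (100 kb and over), over all cells of the filter, in the macrophage-like clusters only and at 1.5-fold. It was also 0 in 3 settings chosen after seeing the data, with equal cluster shares, without cluster 4 and without cells of 20 or more Malt1 UMIs, and 2 without cluster 0, where Clec4e stood at -0.41 too. The log2 ratio of Malt1 changed sign to 0.082 with equal weight per cluster, 0.17 in the macrophage-like clusters only, 0.18 without cluster 4 and 0.0689 without the cells of 20 or more Malt1 UMIs. The last value was bound to rise, since Malt1 itself chose the cells left out and they held more of its PBS UMIs. With equal cluster shares, each cluster's own levels were kept and the value was -0.05, and the cause of the remaining changes was not tested.

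Of the pathway genes, 5 were called higher and 8 lower. The higher count was 3 in cells thinned to 8000 UMIs, in the macrophage-like clusters only and at a minimum of 50 CPM, 0 at 1.5-fold, and 11 with no minimum. The lower count was 3 with equal weight per cluster, with equal cluster shares and at a minimum of 50 CPM, 4 in cells matched on long genes and without the cells of 20 or more Malt1 UMIs, and 2 without cluster 4 and at 1.5-fold. Leaving out the cells rich in Malt1, most of them of the PBS library, was bound to raise the ratios of Cxcl2 and Tnf, as said above. Scaling by TMM or by median-of-ratios moved the median of all genes by less than 0.1. Card9 was limited by depth, and shares of cells thinned to 1500 UMIs or not thinned were computed as well.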
